A study of Mus musculus with 6 samples.

Results

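The 7 genes Pla2g2f, Akp3, Agmat, Bpifb5, Otop3, Serpina9 and Wdr49 were nearly without reads in wildtype OPCs and were read in all DISC1-Δ3 OPC libraries. They were chosen by name, for that pattern in the reads of these same libraries, from a deposited table of 18211 genes. No numerical limit came with the choice, so their levels and folds are given as a description, without a test. OPCs, the oligodendrocyte precursor cells, are glial cells that divide and give rise to myelinating oligodendrocytes.

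RNA was sequenced from 3 libraries of each genotype. DISC1-Δ3 mice (NG2-CreERTM: DISC1 exon3 fl/+) carry 1 floxed copy of exon 3 of Disc1 and a tamoxifen-inducible Cre driven by the promoter of NG2, which pericytes use as well as OPCs. Wildtype mice were without CreERT, so effects of the recombined allele and of the Cre transgene cannot be told apart. Both genotypes are labelled C57BL/6 and received tamoxifen by gavage on 4 days, P4 to P7, and OPCs were taken from the brain at P7 by immunopanning on PDGFRα. The labels do not say whether libraries came from separate animals or litters, so p-values measure the spread between libraries, which may be technical.

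Depth was similar in all libraries, from 13716619 to 16417219 reads assigned to genes, so that 1 read was worth 0.0609 to 0.0729 CPM (reads scaled to the library total). DISC1-Δ3 replicate 3 stood apart from its group, since its counts differed from replicates 1 and 2 by a chi-square of 5.39 and 4.99 for each degree of freedom, where those differed from each other by 2.59. Disc1 itself had an RPKM (reads scaled to transcript length and library total) of 3.55 ± 0.238 in wildtype and 2.72 ± 0.240 in DISC1-Δ3 OPCs (SD, n = 3 each), counted over the whole gene and not over exon 3. The log2 fold change of Disc1 was -0.45 (SE 0.088, adjusted p = 0.000528 by edgeR, described below). In brain tissue, the paper reports full-length DISC1 as unchanged. Cspg4, which encodes NG2, had an RPKM of 15.8 ± 1.38 and 22.9 ± 1.41 (SD, n = 3 each). The OPC preparations held strong microglial signal. The RPKM summed over 8 microglia markers was 11229 to 11458 in wildtype and 7899 to 8197 in DISC1-Δ3 libraries, and all 8 were lower in DISC1-Δ3. Over 8 OPC markers the sum was 524 to 544 and 668 to 692, with 6 higher and 1 lower. Of all 13792 tested genes, 20.4% were higher and 19.5% lower (edgeR, described below). In such bulk samples, fewer cells of a type and less RNA per cell cannot be told apart, and the part of cell composition in the results below was not tested.

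The products of these genes have unrelated roles, and most are known from tissues other than brain. Pla2g2f encodes a secreted phospholipase A2 of skin, which cuts a fatty acid from membrane phospholipids, the first step towards lipid mediators such as prostaglandins. Akp3 encodes an alkaline phosphatase of the intestinal brush border. Agmat is annotated as the gene of agmatinase, a mitochondrial enzyme named for turning agmatine into the polyamine putrescine and urea, an activity not measured here. Bpifb5 belongs to a family of secreted lipid-binding proteins related to bactericidal/permeability-increasing protein. Serpina9 encodes a secreted serpin, a protease inhibitor known from germinal centre B cells. Otop3 encodes a proton channel of the otopetrin family, and Wdr49 a protein with WD40 repeats, so those genes encode neither enzymes nor secreted proteins.

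The genes lie at 7 places on 6 chromosomes (RefSeq coordinates, GRCm38.p6). Pla2g2f (chr4:138750533-138757598, minus strand) and Agmat (chr4:141746675-141759263, plus strand) share chromosome 4 at a distance of 2.99 Mb. The others are Akp3 (chr1:87124954-87128728, plus), Bpifb5 (chr2:154223742-154240902, plus), Otop3 (chr11:115334731-115346927, plus), Serpina9 (chr12:103996615-104013652, minus) and Wdr49 (chr3:75273928-75482165, minus). Their longest GENCODE models have 5 to 15 exons, and the gene bodies span 3.77 kb for Akp3 to 208 kb for Wdr49.

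RefSeq promoter windows, 250 bases before to 50 after a transcription start, were held for 6 of the 7 genes, and Serpina9 had no entry. The upstream 250 bases of Akp3, Bpifb5 and Otop3 are shown because they overlap no GENCODE exon and span the range from few to many CG pairs. Capitals mark CTTTGA or its reverse complement TCAAAG, the core letters bound by TCF/LEF factors, the DNA-binding partners of β-catenin.
Akp3 (chr1:87124704-87124953, plus strand): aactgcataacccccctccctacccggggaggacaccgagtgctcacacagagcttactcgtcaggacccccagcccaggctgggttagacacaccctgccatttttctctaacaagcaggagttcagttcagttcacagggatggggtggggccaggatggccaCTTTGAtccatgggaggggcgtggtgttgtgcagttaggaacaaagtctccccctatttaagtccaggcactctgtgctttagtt
Bpifb5 (chr2:154223492-154223741, plus strand): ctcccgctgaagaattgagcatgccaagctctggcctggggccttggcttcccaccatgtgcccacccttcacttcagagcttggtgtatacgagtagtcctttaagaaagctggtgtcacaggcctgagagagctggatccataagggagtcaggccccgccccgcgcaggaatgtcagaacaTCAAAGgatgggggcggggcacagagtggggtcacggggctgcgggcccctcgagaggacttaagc
Otop3 (chr11:115334481-115334730, plus strand): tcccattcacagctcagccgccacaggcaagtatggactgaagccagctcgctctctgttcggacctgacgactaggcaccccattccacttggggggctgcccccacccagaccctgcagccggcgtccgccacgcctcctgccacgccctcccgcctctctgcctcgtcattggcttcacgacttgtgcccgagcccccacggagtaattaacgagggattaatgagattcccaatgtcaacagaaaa

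CTTTGA, searched on both strands, was found in 3 of these 6 genes, against 18.2% of all 27025 genes with a window and 14.2% of the 10964 tested genes among them. It began 85 bases before the start of Akp3 and, on the opposite strand, 66 bases before that of Bpifb5. Agmat has 2 annotated starts, and CTTTGA began 51 and 27 bases before the later one. Those Agmat letters lie inside the transcript that begins at the earlier start, and the stretch around the first match is ccctctcagcctCTTTGAtcccagtgtgtc on the plus strand. The windows of Pla2g2f, Otop3 and Wdr49 do not hold these letters. CTTTGT, a variant of the same core with another last letter, was found in Akp3 and Agmat only, 2 of 6 genes against 21.0% of all genes. The share of all genes with either form was not counted, so the 18.2% stands for CTTTGA alone. The only start held for Wdr49 lies inside the RefSeq range given above and may not be the start used here. TATAAA was found in that window alone, 38 bases after the start, against 15.7% of all genes. These are matches of letters and no measure of binding, and CTTTGA and CTTTGT share their first 5 letters without any match being counted under both.

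CG pairs were few in most of these windows. The 300-base windows held 6 CG pairs in Akp3, 11 in Bpifb5, 5 in Pla2g2f, 3 in Wdr49, 2 and 4 at the starts of Agmat, and 22 and 23 at 2 nearly identical starts of Otop3. The median was 20 over 14091 windows of tested genes and 7 over all 32851 windows. Otop3 alone was above the median of tested genes, and the other 5 genes were below it.

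Pla2g2f reached the highest level of the 7. It had no read in any wildtype library, and 280, 324 and 383 reads in DISC1-Δ3 replicates 1 to 3, an RPKM of 8.57, 8.75 and 10.4. The mean was 9.23 ± 0.997 RPKM (SD, n = 3). Against a floor of 3 reads per wildtype library, the CPM of Pla2g2f was at least 109-fold higher in DISC1-Δ3 OPCs.

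Akp3 and Agmat, the other enzymes, were also without a read in wildtype OPCs. Akp3 had 167, 164 and 209 reads in the DISC1-Δ3 libraries (RPKM 7.62, 6.61 and 8.46), and its CPM was at least 59.6-fold higher. Agmat had 88, 121 and 114 reads (RPKM 4.89, 5.94 and 5.63), and its CPM was at least 35.5-fold higher. For all 3 enzyme genes every DISC1-Δ3 library held at least 88 reads, where the wildtype libraries together held 0.

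The secreted proteins Bpifb5 and Serpina9 had a few wildtype reads. Bpifb5 had 2, 3 and 0 reads in wildtype and 87, 112 and 91 in DISC1-Δ3 libraries (RPKM 4.08, 4.64 and 3.79). The ratio of its pooled reads, scaled by library totals, was 58.0 (exact binomial 95% interval 24.6 to 180.0). Serpina9 had 0, 0 and 1 reads in wildtype and 34, 48 and 54 in DISC1-Δ3 libraries (RPKM 1.45, 1.84 and 2.08). Its ratio of 136 rests on that 1 wildtype read, with an exact interval of 24.0 to 5412. Such intervals pool the reads of the libraries of a group and leave out the spread between them. They and the floor therefore cover counting error alone, and the reads carry no molecular identifiers.

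Otop3 and Wdr49 varied more between the DISC1-Δ3 libraries. Otop3 had 0, 2 and 1 reads in wildtype and 91, 59 and 91 in DISC1-Δ3 libraries (RPKM 2.87, 1.64 and 2.54), a ratio of 80.4 (exact interval 27.2 to 392). Replicate 2 was its lowest. Wdr49 had 1, 2 and 1 reads in wildtype and 34, 50 and 103 in DISC1-Δ3 libraries (RPKM 0.770, 1.01 and 2.08), a ratio of 46.8 (exact interval 18.0 to 173). Replicate 3, the library that stood apart, held most of the Wdr49 reads. Without it the ratio was 32.2, and the mean RPKM was 0.890 in place of 1.29 ± 0.697 (SD, n = 3).

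**Figure D1:**
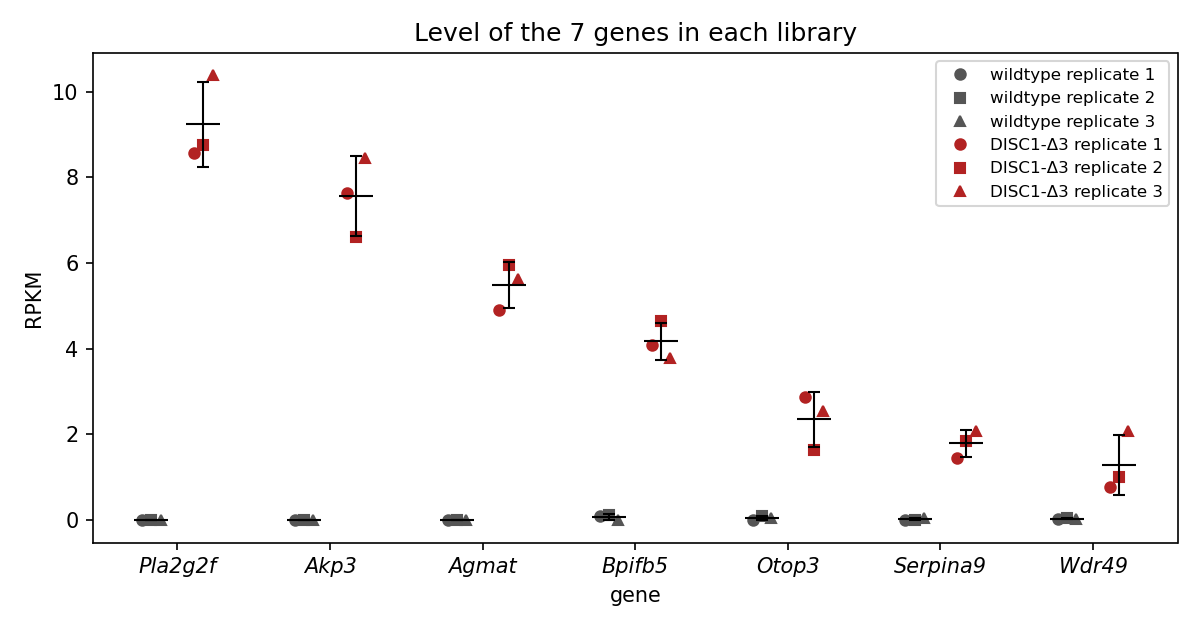
RPKM of the 7 genes (vertical axis) in each wildtype library (grey) and DISC1-Δ3 library (red), where symbols stand for replicates and bars for mean ± SD (n = 3). The DISC1-Δ3 libraries lie above the wildtype libraries for every gene, from 8.57 to 10.4 RPKM for Pla2g2f down to 0.770 to 2.08 RPKM for Wdr49.

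In RPKM, a level per transcript length, the order in DISC1-Δ3 OPCs was Pla2g2f, Akp3, Agmat, Bpifb5, Otop3, Serpina9 and Wdr49. The ranges of neighbours in this order did not overlap from Pla2g2f to Otop3, although the lowest Pla2g2f library (8.57) was close to the highest Akp3 library (8.46). Otop3, Serpina9 and Wdr49 overlapped, with means of 2.35 ± 0.637, 1.79 ± 0.318 and 1.29 ± 0.697 RPKM (SD, n = 3 each). In CPM the coefficient of variation across DISC1-Δ3 libraries was 9.69% for Agmat, 10.5% for Bpifb5 and 16.7% for Serpina9, near the 9.64%, 10.2% and 14.9% that counting alone gives at their depth. It was 10.6% against 5.51% for Pla2g2f, 12.1% against 7.45% for Akp3, 27.1% against 11.2% for Otop3 and 53.9% against 12.7% for Wdr49. The libraries did not rank alike, since replicate 3 was highest for Pla2g2f, Akp3, Serpina9 and Wdr49, replicate 2 for Agmat and Bpifb5, and replicate 1 for Otop3.

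All 7 genes passed the filter for testing, which asked for 3 or more libraries with an RPKM of 0.5 or higher, and each passed it through the DISC1-Δ3 libraries only. Their groups did not overlap, which was what chose them, and 35.9% of the 13792 genes tested were higher in DISC1-Δ3 without overlap. A stricter pattern, at most 3 reads in each wildtype library and at least 10 in each DISC1-Δ3 library, was met by 37 genes, 0.203% of the table, and the 7 are among them. The reverse pattern was met by 0 genes. Pla2g2f, Akp3 and Agmat are 3 of the 6 of these 37 genes that had no whole or partial read in wildtype.

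**Figure D2:**
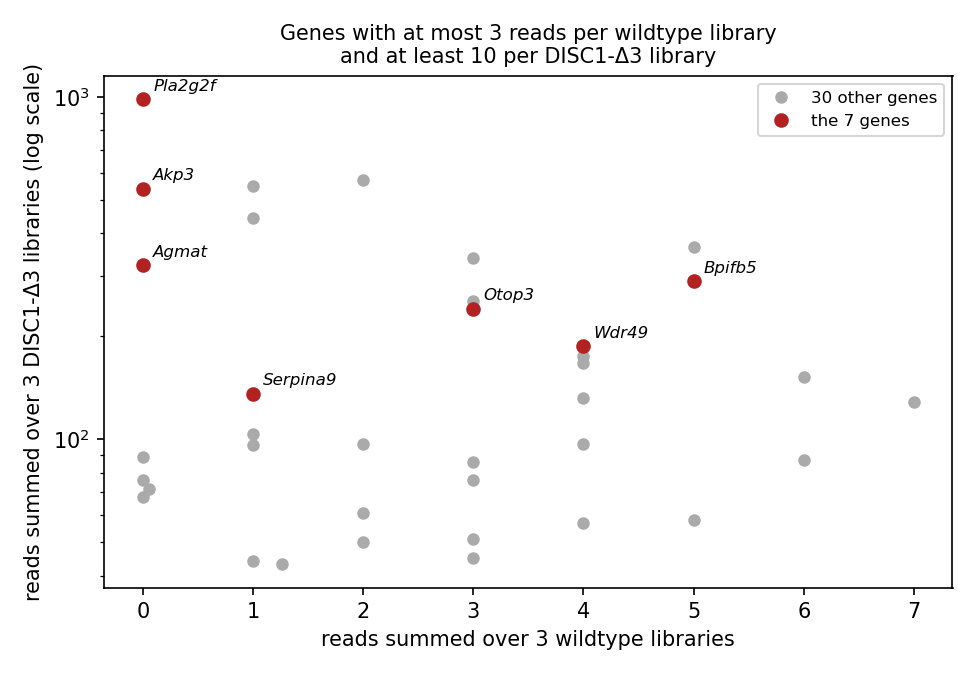
Reads summed over 3 wildtype libraries (horizontal axis) and over 3 DISC1-Δ3 libraries (vertical axis, log scale) for the 37 genes with at most 3 reads in each wildtype library and at least 10 in each DISC1-Δ3 library. The 7 genes (red) have 0 to 5 wildtype reads and 136 to 987 DISC1-Δ3 reads, and Pla2g2f is the highest of all 37.

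Sharing of reads with near copies was checked on sequence. Every count of the 7 genes was a whole number, as were 90.2% of all counts above 0, so no division of their reads was seen. The counter is not named, and a shared read may have been given wholly to 1 gene. The longest protein-coding GENCODE transcript of each gene was cut into stretches of 50 bases, the length of a read. None of those of Pla2g2f, Agmat, Bpifb5, Otop3 and Wdr49 occurred in a transcript of another gene. Only identical stretches were searched, so matches with differing bases are not covered. For Akp3, 35 of 1631 stretches (2.15%) also occurred in Alpi, a close relative. Alpi has no entry among the 18211 genes, each of which had reads in at least 1 library. For Serpina9 it was 93 of 3522 (2.64%), shared with many unrelated transcripts.

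The neighbourhood of each gene was examined next, since position played no part in the choice. The 3 nearest genes of the table on each side gave 42 neighbours, of which 28 were among the 13792 genes tested (edgeR, quasi-likelihood, Benjamini-Hochberg over all of them). Of these, 10 (35.7%) were higher and 6 (21.4%) lower in DISC1-Δ3, where 20.4% and 19.5% of all tested genes were. A rise of at least 1 on the log2 scale was found for 6 of the 28 (21.4%), against 2.76% of all tested genes. Chrnd, among these 6, passed the filter only through the DISC1-Δ3 libraries, so it could be tested only because it was high there. Those 6 lay beside only 3 of the genes, Akp3, Pla2g2f and Wdr49, and genes of 1 neighbourhood are not independent.

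The neighbours of Akp3 on its downstream side rose with the largest values. Ecel1, which encodes a membrane metalloprotease of neurons, lies 14.1 kb away and had 31, 37 and 29 reads in wildtype and 136, 113 and 140 in DISC1-Δ3 libraries. Its log2 fold change was 1.92 (SE 0.183, adjusted p = 1.73e-07). Prss56, a trypsin-like serine protease gene 54.4 kb away, had 74, 87 and 107 reads against 6236, 6706 and 6268, or 2.84 ± 0.351 against 204 ± 11.8 RPKM (SD, n = 3 each), and its log2 fold change was 6.08 (SE 0.080, adjusted p = 8.73e-20). Prss56 was thus far above Akp3 itself in RPKM. Chrnd, the δ subunit of the muscle-type acetylcholine receptor, lies 61.9 kb away and had 0, 0 and 1 reads against 140, 177 and 125. It passed the filter only through the DISC1-Δ3 libraries, and its fitted log2 fold change of 8.26 (SE 0.433, adjusted p = 6.58e-11) is no bound. On the other side, Dis3l2 at 74.9 kb had a log2 fold change of -0.06 (SE 0.068, adjusted p = 0.524), Nppc was at 0.06 (SE 0.465, adjusted p = 0.926), and Cops7b, 518 kb away, rose by 0.33 (SE 0.088, adjusted p = 0.00613).

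Around Pla2g2f, the neighbours include other secreted phospholipase A2 genes of the same cluster, and they did not move alike. Pla2g5, 41.6 kb away, had 20, 47 and 31 reads in wildtype and 179, 241 and 254 in DISC1-Δ3 libraries, an RPKM of 1.13 ± 0.389 against 7.87 ± 0.919 (SD, n = 3 each). The log2 fold change of Pla2g5 was 2.69 (SE 0.183, adjusted p = 2.04e-09). The cluster members closest to Pla2g2f had few reads and were not tested. Pla2g2c, 5.96 kb away, had 1, 1 and 3 reads against 4, 1 and 6, and Pla2g2d, 18.1 kb away, had 7, 9 and 11 against 1, 2 and 4. Without the filter on low values, Pla2g2d was lower in DISC1-Δ3, by a log2 fold change of -1.98 (SE 0.672, adjusted p = 0.0195). Vwa5b1, a gene for a von Willebrand factor A domain protein 115 kb away, rose from 54, 52 and 57 reads to 467, 518 and 516, a log2 fold change of 3.12 (SE 0.109, adjusted p = 2.83e-13). Otud3, a deubiquitinase gene, rose by 0.41 (SE 0.104, adjusted p = 0.00414), and Ubxn10, between Pla2g2f and Vwa5b1, had a log2 fold change of 0.54 that missed the threshold (SE 0.220, adjusted p = 0.061).

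Wdr49 and Otop3 each had risen neighbours of smaller size. Serpini1, which encodes the neuronal serpin neuroserpin, lies 75.3 kb from Wdr49 and had 21, 40 and 30 reads in wildtype and 106, 95 and 110 in DISC1-Δ3 libraries, a log2 fold change of 1.69 (SE 0.197, adjusted p = 1.96e-06). Pdcd10, which lies between Wdr49 and Serpini1, had a log2 fold change of -0.02 (SE 0.082, adjusted p = 0.884). Beside Otop3, Hid1, a gene of dense-core vesicle formation 0.778 kb away, rose by 0.78 (SE 0.098, adjusted p = 5.19e-06) and Cdr2l by 0.59 (SE 0.106, adjusted p = 0.000227). Ush1g, a scaffold gene of the inner ear 0.995 kb from Otop3 on the other side, had 3, 3 and 6 reads in wildtype and 28, 21 and 23 in DISC1-Δ3 libraries and fell under the filter. Without the filter its log2 fold change was 2.47 (SE 0.457, adjusted p = 2.18e-05). Otop2, its other proton channel neighbour, had 3, 0 and 1 reads against 4, 3 and 5.

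No tested neighbour of Agmat, Bpifb5 or Serpina9 passed the threshold upwards. Beside Agmat, Dnajc16, Casp9 and Efhd2 fell, with log2 fold changes of -0.49 (SE 0.085, adjusted p = 0.000183), -0.24 (SE 0.082, adjusted p = 0.0277) and -0.40 (SE 0.044, adjusted p = 8.83e-07). The call of Casp9, an apoptosis protease gene, was lost under 6 of 13 alternatives, among them those without wildtype replicate 1 (adjusted p = 0.123), wildtype replicate 2 (0.0817) or DISC1-Δ3 replicate 2 (0.0597). Rsc1a1 fell as well, with a log2 fold change of -1.42 (SE 0.187, adjusted p = 8.4e-06), but its reads are divided with Ddi2, in which it lies. Beside Bpifb5, Cdk5rap1 fell, with a log2 fold change of -0.51 (SE 0.151, adjusted p = 0.013), and without wildtype replicate 3 the adjusted p of Cdk5rap1 was 0.0742. The RefSeq range of Cdk5rap1 covers Bpifb5 on the opposite strand, and the protocol names no strand marking, so reads from introns of these genes could be mixed. None of the 1588 stretches of 50 bases in the Bpifb5 transcript occurred in a Cdk5rap1 transcript on either strand, and intron reads were not checked. Cdk5rap1 had 93, 102 and 124 reads in wildtype and 70, 75 and 93 in DISC1-Δ3 libraries, the direction opposite to that of Bpifb5. The 3 Bpifb genes among its neighbours had 0 to 3 reads in any library. Of the 6 serpin genes around Serpina9, only Serpina3f was tested, with a log2 fold change of -0.11 (SE 0.317, adjusted p = 0.819), and the other 5 had at most 6.4 reads in any library.

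**Figure D3:**
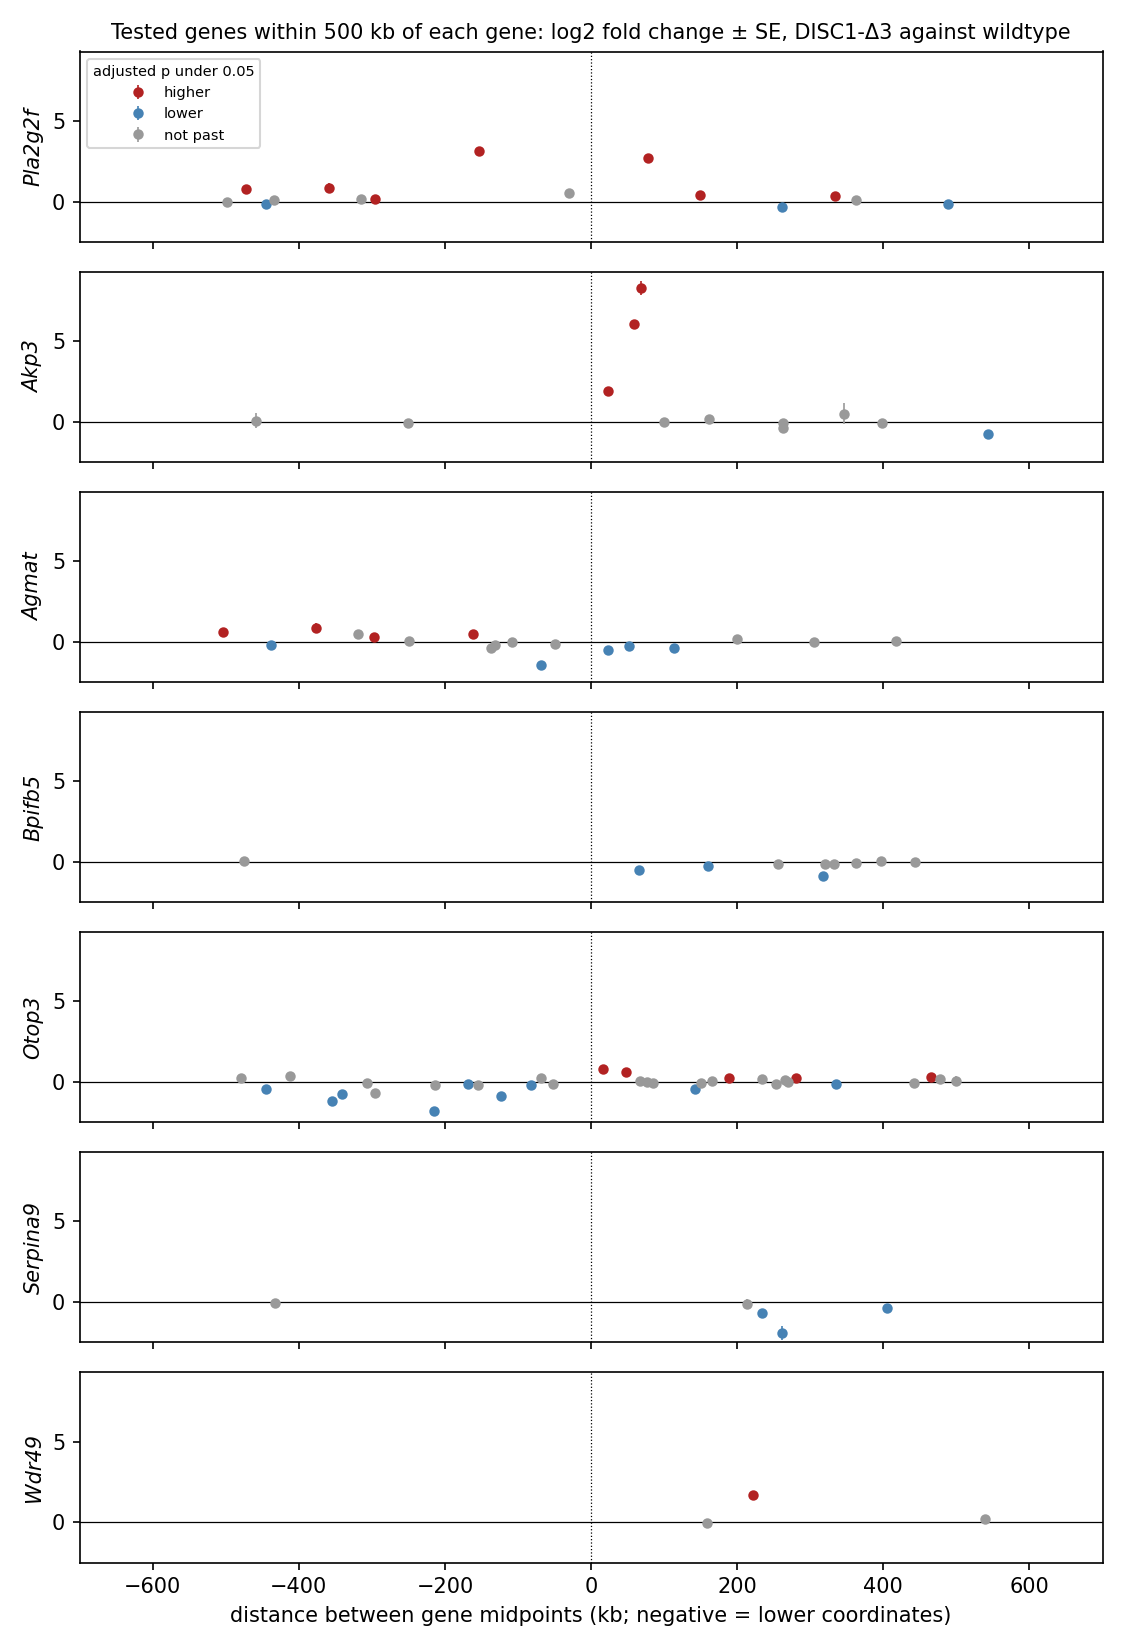
Log2 fold change ± SE of the tested genes within 500 kb of each of the 7 genes (vertical axis, 1 panel per gene) against the distance between gene midpoints in kb. Red points are higher, blue points lower and grey points not past an adjusted p of 0.05. Near Akp3 3 neighbours rose, up to 8.26, and near Pla2g2f Vwa5b1 and Pla2g5 rose by 3.12 and 2.69, while no point beside Bpifb5 or Serpina9 is higher.

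Over a wider range the share of risen genes was lower. Within 500 kb of the 7 genes, a range chosen after the values were seen, 97 of 128 genes were tested, and 20 (20.6%) were higher and 24 (24.7%) lower. The 6 that rose by at least 1 were 6.19% of those 97. At least 1 of the 3 nearest neighbours on either side rose by that much for 3 of the 7 genes (42.9%). The same held for 11.5% of all tested genes with a position, and for 21.8% of the 380 that themselves rose by at least 1.

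Relatives of the 7 genes by sequence or pathway did not follow them as a group. Of 49 tested relatives, 8 were higher and 17 lower, 51.0% of them called where 39.9% of all tested genes were, with a median log2 fold change of -0.06 against 0.01 over all tested genes. Without TMM, on library totals alone, 15 relatives were higher, and of all called genes 69.2% were higher in place of 51.1%. No called relative changed sign under any scaling. The counts for single lists below are to be read beside the 20.4% higher and 19.5% lower of all tested genes.

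Among the secreted phospholipases A2, Pla2g5 rose and Pla2g3 fell, with a log2 fold change of -0.42 (SE 0.053, adjusted p = 5.12e-06), from 34.8 ± 0.608 to 27.4 ± 0.338 RPKM (SD, n = 3 each). The third tested gene, Pla2g12a, had a log2 fold change of 0.23 (SE 0.098, adjusted p = 0.075). Of 8 tested intracellular phospholipase A2 genes none rose and 3 fell, among them Pla2g4a, the cytosolic enzyme that frees arachidonic acid, with a log2 fold change of -0.46 (SE 0.136, adjusted p = 0.0122). Without wildtype replicate 3 its adjusted p was 0.0629. The others were the lysosomal Pla2g15 (-0.41, SE 0.046, adjusted p = 1.22e-06) and the secreted lipoprotein-associated Pla2g7, which is grouped here with them (-0.30, SE 0.044, adjusted p = 2.79e-05). Of 15 tested genes that make or break down eicosanoids, the lipid mediators derived from arachidonic acid, 7 fell and 1 rose, and Hpgd, which inactivates prostaglandins, is among the 7. The falls were led by Alox5, the 5-lipoxygenase of leukotriene synthesis, from 18.1 ± 0.621 to 8.87 ± 0.507 RPKM (log2 fold change -1.11, SE 0.073, adjusted p = 1.49e-09), its partner Alox5ap (-0.71, SE 0.051, adjusted p = 4.72e-09), the cyclooxygenase Ptgs1 (-0.64, SE 0.043, adjusted p = 1.89e-09) and the leukotriene C4 synthase Ltc4s (-0.43, SE 0.045, adjusted p = 5.56e-07). Lta4h, the leukotriene A4 hydrolase, was the gene that rose, by 0.35 (SE 0.064, adjusted p = 0.000294). Several of these genes are known from microglia, whose markers fell in the same libraries by a median log2 of -0.49.

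Alpl, the tissue-nonspecific alkaline phosphatase and the 1 relative of Akp3 that was tested, had 21.5 ± 0.687 RPKM in wildtype and 28.0 ± 1.17 in DISC1-Δ3 OPCs (SD, n = 3 each) and rose by 0.31 on the log2 scale (SE 0.062, adjusted p = 0.000686). Akp3 thus stayed below Alpl in RPKM in every library. Of 15 tested agmatine and polyamine genes, 4 rose and 2 fell, where 20.4% of all tested genes rose and 19.5% fell. Arg2, the mitochondrial arginase, rose from 4.01, 7.01 and 3 reads to 12, 17 and 18.1, a log2 fold change of 1.64 (SE 0.429, adjusted p = 0.00557), and passed the filter only through the DISC1-Δ3 libraries. The polyamine catabolism genes Paox and Sat1 fell, with log2 fold changes of -0.55 (SE 0.077, adjusted p = 2.01e-05) and -0.41 (SE 0.049, adjusted p = 2.45e-06), while Smox, the spermine oxidase gene of the same catabolic route, rose by 0.14 (SE 0.045, adjusted p = 0.0238). Smox lost its call under 5 of 13 alternatives, among them those without wildtype replicate 2 (adjusted p = 0.0509), wildtype replicate 3 (0.125), DISC1-Δ3 replicate 1 (0.158) or DISC1-Δ3 replicate 2 (0.167). Dohh, which modifies translation factor eIF5A downstream of spermidine, rose by 0.27 (SE 0.067, adjusted p = 0.00432). Odc1, ornithine decarboxylase, which makes putrescine from ornithine, had a log2 fold change of 0.08 (SE 0.042, adjusted p = 0.145).

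In the BPI fold family, 6 of the 8 relatives in the table had at most 3 reads in every library. Pltp, which transfers phospholipids between lipoproteins, rose by 0.24 (SE 0.051, adjusted p = 0.00122). Hvcn1, the voltage-gated proton channel of phagocytes, fell, with a log2 fold change of -0.53 (SE 0.052, adjusted p = 2.24e-07), and Otop1 and Otop2 had at most 5 reads in any library. Of 4 tested clade A serpins none rose and 3 fell. The log2 fold change was -1.89 for Serpina3i (SE 0.429, adjusted p = 0.00185), -0.67 for Serpina3g (SE 0.240, adjusted p = 0.0337) and -0.38 for Serpina3n (SE 0.057, adjusted p = 3.8e-05), and the call of Serpina3g was lost under 5 of 13 alternatives, among them those without wildtype replicate 1 (adjusted p = 0.115), wildtype replicate 2 (0.0701) or DISC1-Δ3 replicate 3 (0.112). The Serpina3 genes are close copies, and part of the reads of Serpina3i, Serpina3g and Serpina3n were divided between genes. Serpina3i passed the filter only through the wildtype libraries.

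**Figure D4:**
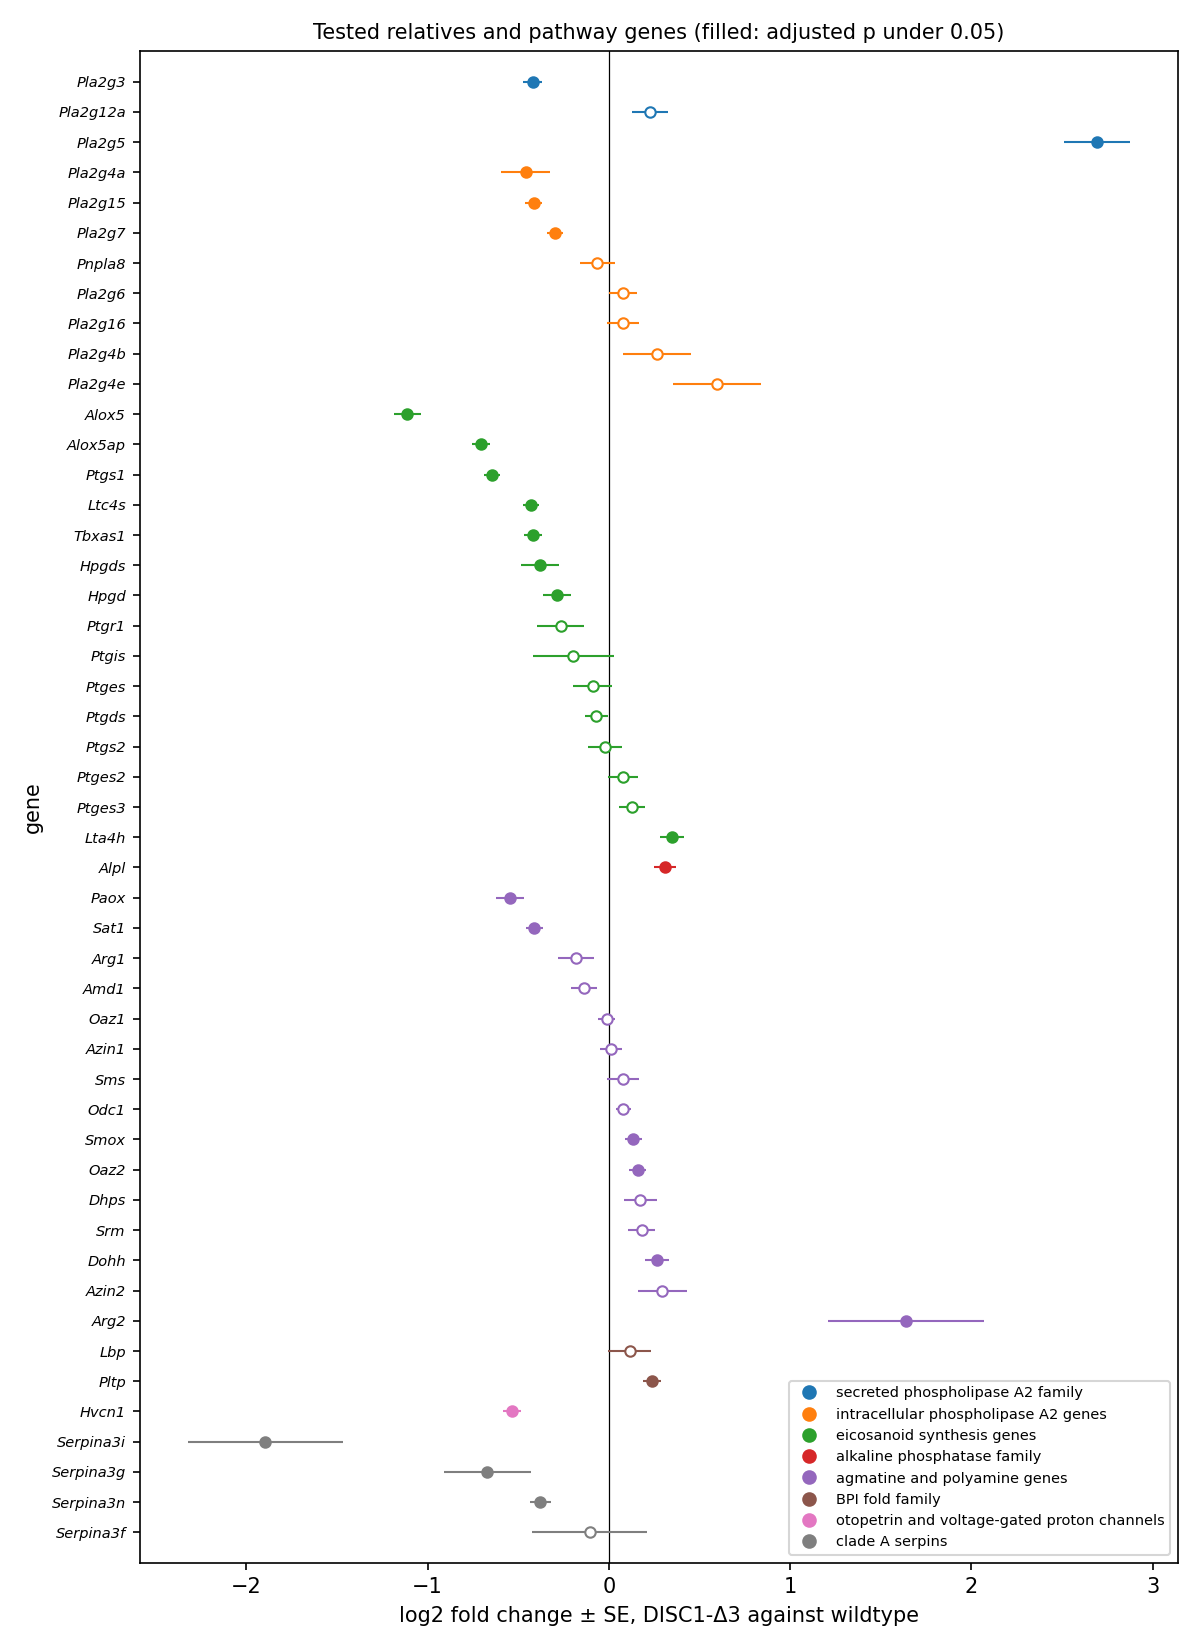
Log2 fold change ± SE of the 49 tested relatives and pathway genes (horizontal axis), coloured by list, with filled points past an adjusted p of 0.05. Pla2g5 (2.69) and Arg2 (1.64) lie farthest to the right and Serpina3i (-1.89) and Alox5 (-1.11) farthest to the left.

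Markers of the tissues in which these genes are known differed in level and direction. Of 6 intestinal epithelium markers in the table, Sis and Apoa4 had at most 3 reads in every library and only Cdx1, an intestinal transcription factor, was tested, with 0 reads in every wildtype library and 28, 32 and 29 in DISC1-Δ3 libraries. The RPKM summed over the 6 was 0.170 to 0.340 in wildtype and 1.39 to 1.71 in DISC1-Δ3 libraries. The DISC1-Δ3 sum was mostly Cdx1, with a mean of 1.19 RPKM, and Cdx1 passed the filter only through those libraries. Of 7 epidermis markers, Krt5, Krt14, Flg and Dsg1a had at most 3 reads in every library, none of the 2 tested passed the threshold, and the sum was 1.96 to 2.56 and 2.73 to 3.17 RPKM. Of 8 B cell markers none rose and 2 of 4 tested fell, where 19.5% of all tested genes fell. The sums were 36.7 to 38.0 and 26.6 to 29.3 RPKM. Of the liver and kidney markers, Apoa1 and Fgb had at most 3 reads in every library. Umod, a kidney tubule gene that was not tested, had 0 reads in every wildtype library and 6, 6 and 8 in DISC1-Δ3 libraries, and Ttr, which choroid plexus makes in brain, rose by 0.26 (SE 0.057, adjusted p = 0.00142). Their sum, mostly Ttr, was 765 to 885 and 994 to 1122 RPKM. Of 3 airway and olfactory markers the 1 tested, Foxj1, did not pass the threshold, and the sum was 7.37 to 8.71 and 6.36 to 7.59 RPKM.

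Against the 20.4% of all tested genes that were higher and 19.5% that were lower, 7 of 8 neuron markers were higher in DISC1-Δ3, of 6 endothelial markers 4 were higher, of 7 astrocyte markers 1 was higher and 5 lower, and of 7 mature oligodendrocyte markers 4 were lower. Only 1 marker of these lists, Slc17a6, rose by at least 1 on the log2 scale, and it passed the filter only through the DISC1-Δ3 libraries.

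The 5 genes nearest to the mean profile of the 7, by Euclidean distance over log2(RPKM + 1) in 6 libraries, were Cdh1, Tbx4, Rspo4, Osr1 and Chrnd, at distances of 0.181 to 0.506. Cdh1, which encodes E-cadherin, had 7, 6 and 3 reads in wildtype and 211, 258 and 282 in DISC1-Δ3 libraries. Tbx4 and Osr1, transcription factor genes of limb and mesoderm, had 1 to 9 and 2 to 5 reads in wildtype libraries and 194 to 221 and 120 to 140 in DISC1-Δ3 libraries. Rspo4, a secreted activator of Wnt signalling, had 1, 0 and 2 reads against 91, 142 and 105. Of these 5 genes, Chrnd is the one that also lies beside one of the 7, Akp3.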

How the data were processed

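The authors deposited 1 table of 18211 genes with an expected count and an RPKM per gene and library. Reads were single-end, 50 bases long. Per the labels, Bowtie2 2.2.5 and mm10 appear in the submitters' processing notes, and the paper names DESeq2. The counter and annotation are not given in the sources used here. Of the deposited expected counts above 0, 90.2% are whole. The authors' RPKM is to 2 decimals, and 4 columns of group averages were not used. From these files, expected counts were rounded, genes were kept where 3 or more libraries reached an RPKM of 0.5, and genotypes were compared with edgeR 4.0.16 (quasi-likelihood, TMM, R 4.3.3; Benjamini-Hochberg, threshold 0.05, two-sided). CPM used totals of rounded counts. The fit was tested on simulated data.

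The 7 genes and all gene lists were chosen with earlier results of these data known, and no p-value over a list is given. Named were the 7 genes, called neighbours, up to 4 called relatives per list, relatives that bear on shared reads, the 5 nearest profiles, Disc1 and Cspg4; Ubxn10, Dis3l2, Nppc, Pdcd10, Ush1g, Pla2g2c, Pla2g2d, Otop1, Otop2, Pla2g12a, Odc1, Lta4h, Smox, Hpgd and the markers were named after their values were seen. The values of 1 called neighbour are not reported here. Gene IDs were matched to RefSeq (GRCm38.p6) for order and promoters, and GENCODE M21 (the same build) gave exons and transcripts. Alternatives were no filter, 2 other scalings, DESeq2 1.42.0, limma 3.58.1 on log2(RPKM + 1) and log2(RPKM + 0.1), the replicate number as a block, and each library left out.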

Additional observations from a re-analysis of the deposited data

How the results depend on the processing

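The 7 genes were chosen on their reads, so leaving out a library could not end their pattern and is no check of it. Wdr49 moved most, from a mean of 3.96 CPM to 2.74 without DISC1-Δ3 replicate 3. The count of neighbours that rose by at least 1 was 5 to 7 under every alternative, 5 with limma on log2(RPKM + 1) and 7 without the filter. Relatives that were higher numbered 8, but 15 with library totals alone, with limma on log2(RPKM + 1) and with limma on log2(RPKM + 0.1), and genes lower in DISC1-Δ3 numbered 2691, but 1774 and 1763 with these limma fits; the median log2 fold change of all genes, 0.01 as reported, was between 0.07 and 0.09 in these settings. Within 500 kb in place of the 3 nearest, an alternative chosen after seeing the data, 20 neighbours were higher and 24 lower, from 97 tested genes in place of 28. Leaving out 1 library gave 2149 to 2918 genes higher and 2149 to 3314 lower, 6 to 11 relatives higher and 16 to 18 lower, and 10 to 11 neighbours higher and 5 to 7 lower. For 40 called relatives and neighbours, 498 of 520 alternative values kept their call, 22 in 7 genes (Casp9, Smox, Serpina3g, Oaz2, Hpgds, Pla2g4a and Cdk5rap1) lost it and 0 reversed. The replicate numbers did not pair the samples (correlations of deviations 0.041, 0.034 and -0.014), and with the replicate block 2774 genes were higher and 2655 lower, 9 relatives higher and 17 lower, and 11 neighbours higher and 6 lower. CTTTGA was found in 3 of 6 genes also in the 250 bases before the start alone. At 0 reads, depth allows up to 3 reads per library, 0.183 to 0.219 CPM, so a low wildtype level of Pla2g2f, Akp3 and Agmat was not detectable.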

Other observations

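Of the 30 other genes with at most 3 reads in each wildtype and at least 10 in each DISC1-Δ3 library, 6 (20.0%) had a neighbour among the 3 nearest on either side that rose by at least 1 on the log2 scale. They were Chrnd, Foxa2, Cdx1, Nkx6-1, Ibsp and Slc6a5, named after their values were seen. The share was 11.5% over all tested genes with a position and 21.8% over the 380 that themselves rose by at least 1. Chrnd repeats the place of Akp3, since its risen neighbours were Prss56, Ecel1 and Akp3 itself. Foxa2 counted only through Nkx2-4, 957 kb away, and Nkx6-1 only through Arhgap24, 542 kb away. Ibsp, the bone sialoprotein gene, had 0, 3 and 0 reads in wildtype and 26, 39 and 21 in DISC1-Δ3 libraries, and its neighbour Spp1, which encodes the related osteopontin, rose by 1.72 (SE 0.072, adjusted p = 2.88e-12 by edgeR's quasi-likelihood test). Beside Cdx1, the arylsulfatase gene Arsi rose by 2.76 (SE 0.256, adjusted p = 1.18e-07) and the proline transporter gene Slc6a7 by 1.05 (SE 0.219, adjusted p = 0.000921). Beside Slc6a5, the neuronal glycine transporter gene, Nell1 rose by 1.40 (SE 0.266, adjusted p = 0.000408). Nell1 and Nkx2-4 had wildtype means of 0.337 and 0.230 RPKM and passed the filter only through the DISC1-Δ3 libraries.

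Subunits of the muscle-type acetylcholine receptor were unequal in these libraries. Beside Chrnd, the neighbour of Akp3, Chrnb1 rose from 24, 14 and 12 reads to 64, 79 and 80 (log2 fold change 2.06, SE 0.259, adjusted p = 5.06e-06 by edgeR's quasi-likelihood test). Chrna1 had 0, 0 and 1.26 reads in wildtype and 11.2, 21 and 11 in DISC1-Δ3 libraries and was not tested. Chrng and Chrne had at most 4 reads in any library.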
